A study of Homo sapiens with 16 samples.

Results

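The genes described here are 55 genes of mammary epithelial identity and breast cancer, of which 49 are among the 15580 genes that the authors' ChIP-seq peak lists name and 6 are in no list. They were taken by gene name from a written list whose rule uses no measured value, although earlier results of these data were known when it was chosen. They comprise 11 basal and hemidesmosome genes, 10 luminal genes, 7 genes of the epithelial–mesenchymal transition (EMT), 7 epithelial transcription factors, and 20 driver genes. The driver genes are 6 growth factor receptors, 6 cell cycle genes, 5 genes of RAS, PI3K and MAP kinase signalling and 3 DNA repair genes. DNA bound to DNMT3B or to OCT1 was sequenced from MCF10CA1a cells, which received either ethanol (vehicle) or pterostilbene (PTS), a stilbenoid from blueberries and grapes, at 7 µM in ethanol for 9 days. MCF10CA1a is an invasive breast cancer line that carries an activated *HRAS* transgene. It descends from the mammary epithelial line MCF10A by passage as tumours in mice, and both treatments share this background. Each antibody and treatment had 3 biological replicates, and each antibody and treatment had 1 input library. The authors deposited 1 peak list per antibody and treatment, with the replicates pooled, so no value below has a replicate error and none could be tested between replicates.

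The mammary duct has an inner layer of luminal cells, which make keratins such as *KRT8* and *KRT18* and respond to hormones through *ESR1* and *PGR*, and an outer basal layer, which makes *KRT5* and *KRT14*, depends on the transcription factor *TP63* and is anchored to the basement membrane by hemidesmosomes. Driver genes control growth in both layers and are altered in breast tumours. DNMT3B adds methyl groups to cytosines in CpG dinucleotides, and OCT1, encoded by *POU2F1*, is a widely expressed transcription factor whose known site is the octamer ATGCAAAT. ChIP of these proteins does not measure transcription, so the identity of the cells could not be checked against marker expression. Of 18 markers of immune, endothelial and fibroblast cells, 11 (61.1%) had an OCT1 peak and 2 (11.1%) a DNMT3B peak in vehicle-treated cells. Over all protein-coding genes these shares were 57.7% and 14.1%. A peak is not taken here as a sign that a gene is active, which was not tested.

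The value of a peak is its pileup, the number of sequenced fragments, extended to 200 bp, that cover its summit. The lists start at pileups of 11 to 12.86, over a background of 3.20 for DNMT3B and 3.50 for OCT1, and the pooled depth implied by this background was about 43200000 to 47700000 reads. Pileups of PTS-treated cells had been scaled, so that 1 read is worth 0.913 (DNMT3B) or 0.990 (OCT1). Peaks of the 55 genes were low. Their median pileup was 14 for DNMT3B and 15 for OCT1 in vehicle-treated cells, beside 15 over all peaks of either list, and the highest was 25. A peak is called here where the deposited P-value score is under 0.05, which needs a pileup of about 24 (24 to 24.74 over the lists). This score is not a probability, and the cut is strict. Among called peaks the largest MACS2 Poisson p of pileup against background was 1.26e-14 for DNMT3B and 8.95e-14 for OCT1. Among all listed peaks it was 0.000289, in the OCT1 vehicle list. The OCT1 peak at *HRAS* in vehicle-treated cells, with a score of 0.0405, was the sole member peak called, and 1.43% of 20090 protein-coding genes had a called peak in this list. No member had a called peak in the other lists, where 0.856% (DNMT3B, vehicle), 0.627% (DNMT3B, PTS) and 0.737% (OCT1, PTS) of genes had one. Listed peaks that were not called are described below as listed, and a gene without a listed peak is not thereby shown to be unbound.

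The DNA under the summits that the results turn on is shown here, with CpG dinucleotides, the substrate of DNMT3B, in capitals. Each run is the plus strand of GRCh37, 101 bases centred on the summit. *HRAS* is shown for OCT1 in vehicle-treated cells (chr11:534764-534864, 9 CpG), since it held the highest member peak. *FOXA1* (chr14:38054528-38054628 in vehicle-treated and chr14:38054360-38054460 in PTS-treated cells) is the other member whose OCT1 peak recurred in both treatments, with 10 and 5 CpG. *CCND1* (chr11:69454124-69454224, 8 CpG) had an OCT1 peak in the active promoter state in the list of PTS-treated cells.
HRAS, OCT1, vehicle: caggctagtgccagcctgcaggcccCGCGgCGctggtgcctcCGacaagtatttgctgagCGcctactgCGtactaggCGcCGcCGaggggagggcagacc
FOXA1, OCT1, vehicle: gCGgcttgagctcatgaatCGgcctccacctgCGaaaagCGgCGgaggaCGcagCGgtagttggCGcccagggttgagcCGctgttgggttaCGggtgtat
FOXA1, OCT1, PTS: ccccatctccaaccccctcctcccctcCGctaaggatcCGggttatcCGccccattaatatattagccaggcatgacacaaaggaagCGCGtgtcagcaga
CCND1, OCT1, PTS: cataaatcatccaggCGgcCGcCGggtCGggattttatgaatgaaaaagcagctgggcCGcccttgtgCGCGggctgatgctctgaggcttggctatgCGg

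OCT1 peaks were listed at most of these genes in vehicle-treated cells and at few in PTS-treated cells, and DNMT3B peaks were listed at a minority. In vehicle-treated cells 48 of 55 members (87.3%, 95% interval 76.0 to 93.7) had an OCT1 peak, 175 peaks in all, whereas 57.7% of all protein-coding genes had one. After PTS, 8 members (14.5%, 95% interval 7.56 to 26.2) had 13 OCT1 peaks, beside 12.6% of all genes. DNMT3B peaks were listed at 14 members (25.5%, 95% interval 15.8 to 38.3; 27 peaks) in vehicle-treated cells, beside 14.1% of genes. In PTS-treated cells they were listed at 2 members (3.64%, 95% interval 1.00 to 12.3; 3 peaks), beside 3.21%. Members are longer than genes in general, with a median of 42513 bp against 27256.5 bp, and the part of length in these shares was not tested. Intervals cover counting error only. Only *TP63* and *HRAS* had a peak in all 4 lists, which 2.53% of genes had, and *CDH3* had one in 3 lists. A further 15 members were in 2 lists and 31 in 1 list, which was that of OCT1 in vehicle-treated cells for all but *KRT6A*. The fall in members from the vehicle to the PTS lists went with shorter lists as a whole, from 82187 to 16071 OCT1 peaks and from 15855 to 4326 DNMT3B peaks.

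**Figure D1:**
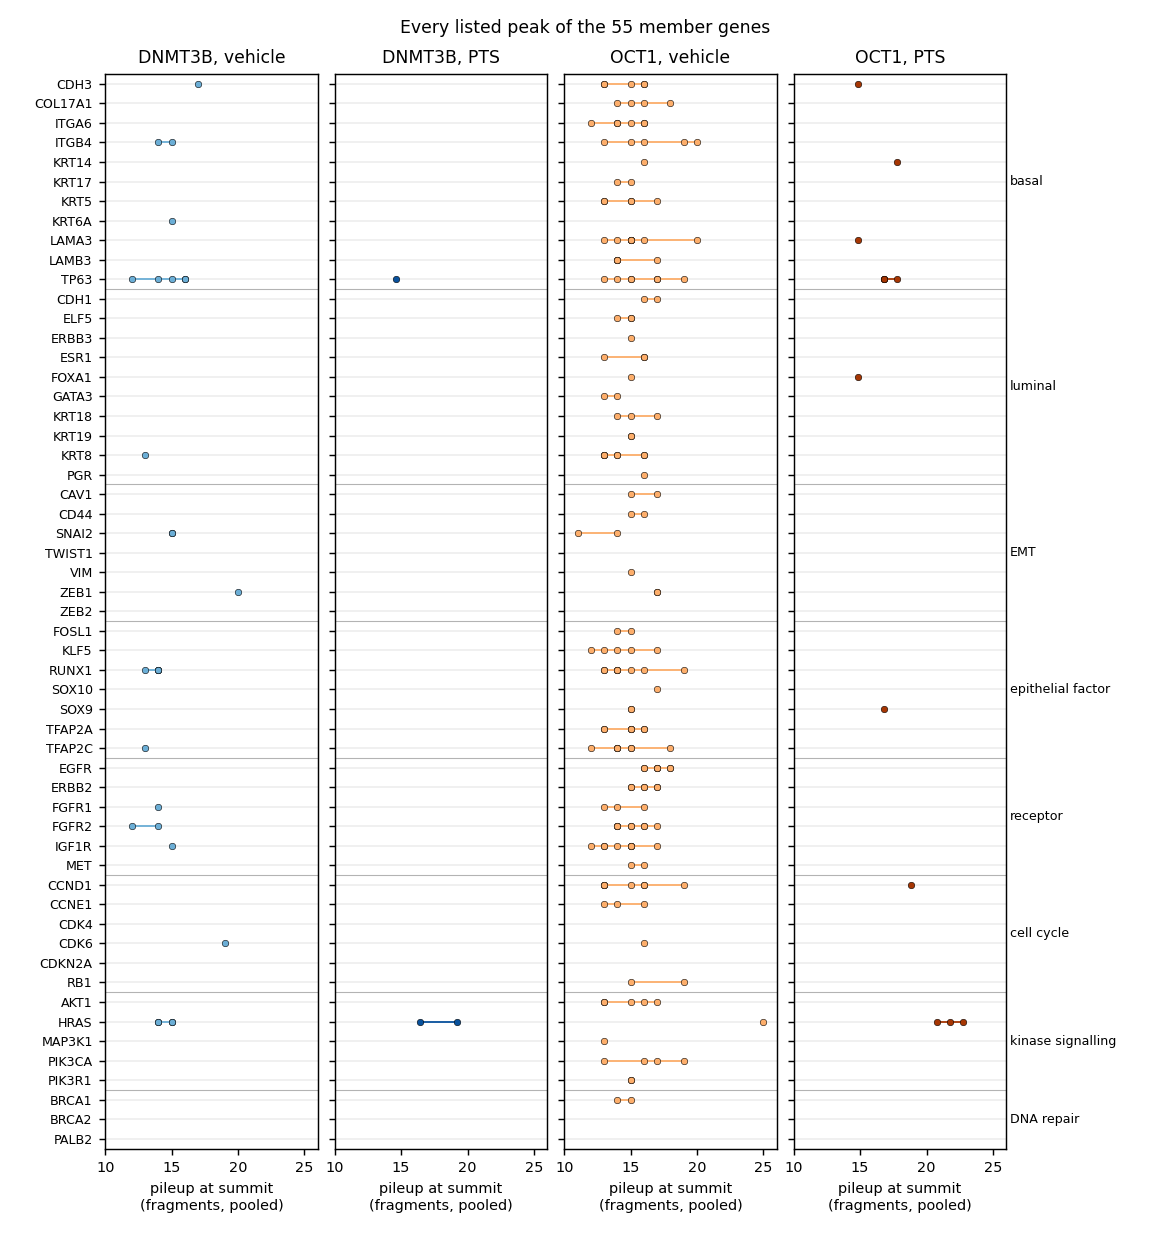
Pileup at the summit (x axis, pooled fragments) of every listed peak of the 55 genes (rows, grouped by class), with 1 panel per antibody and treatment and a line from a gene's lowest to its highest peak. HRAS lies apart at 25 in the OCT1 panel of vehicle-treated cells and at 20.78 to 22.76 in that of PTS-treated cells, while all other OCT1 peaks of members lie between 11 and 20.

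Near transcription starts the members had most peaks in the OCT1 list of vehicle-treated cells. There 26 of 55 members (47.3%) had 42 peaks within 5 kb of a start, beside 31.1% of all genes, and 12 of these peaks were in the active promoter state of human mammary epithelial cells (HMEC). In PTS-treated cells *HRAS*, *SOX9* and *CCND1* had an OCT1 peak as close (5.45% of members, beside 4.76% of genes). DNMT3B peaks lay within 5 kb of the start of *HRAS*, *ITGB4*, *KRT6A* and *TFAP2C* in vehicle-treated cells (7.27%, beside 5.16%) and of *HRAS* alone among the members in PTS-treated cells (1.82%, beside 0.876%). Starts are those of the transcripts given in the lists, and the nearest was used.

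Among the basal genes, 10 of 11 had an OCT1 peak and 4 had a DNMT3B peak in vehicle-treated cells. The highest OCT1 pileup of the class, 20, was shared by *ITGB4* and *LAMA3*. *ITGB4*, the integrin chain that anchors hemidesmosomes to laminin, had 5 OCT1 peaks with pileups of 13 to 20, the highest at chr17:73719379-73719600 in an intron, 2019 bp from a start and in the active promoter state. A peak of 19 lay in a coding exon, and those of 15 and 16 within 2.1 kb of a start as well. Both DNMT3B peaks of *ITGB4*, of 15 (chr17:73719830-73720029, strong enhancer) and 14, also lay in introns within 5 kb of a start, and neither antibody had a peak there after PTS. *LAMA3*, which encodes a chain of the laminin that binds this integrin, had 8 OCT1 peaks of 13 to 20, of which the one at 20 lay 13274 bp beyond the gene. After PTS it had an OCT1 peak of 14.84 in an intron, in heterochromatin, 18781 bp from the nearest vehicle peak. Its partner chain *LAMB3* had 4 peaks of 14 to 17, with those of 14 and 17 at 1932 bp and 4194 bp before the start in the strong enhancer state.

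The remaining adhesion genes of the basal layer showed the same range. *COL17A1*, the collagen of hemidesmosomes, had 4 OCT1 peaks of 14 to 18, all in the gene and none within 5 kb of its start. The laminin-binding integrin *ITGA6* had 6 peaks of 12 to 16, with that of 15 at 586 bp before the start. *CDH3*, the cadherin of basal cells, had 5 OCT1 peaks of 13 to 16, including a peak of 13 in a coding exon in the active promoter state at 858 bp from the start. It also had a DNMT3B peak of 17, the highest of the basal class in that list, at 21913 bp before the start in heterochromatin. In PTS-treated cells *CDH3* kept a listed OCT1 peak of 14.84, but at another place, 3981 bp from the nearest vehicle peak.

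Basal keratins had peaks near their starts with low pileups. *KRT5*, the keratin that pairs with *KRT14* in basal cells, had 5 OCT1 peaks of 13 to 17. Those of 15, 13 and 17 lay 1581 bp after and 294 bp and 3983 bp before the start, in active promoter and strong enhancer states. *KRT17*, a keratin of basal and stressed epithelia, had peaks of 14 and 15 within the gene, both with 4 near-identical copies elsewhere in the genome. *KRT14* had an OCT1 peak of 16 in vehicle-treated cells, 7073 bp before its start. After PTS it had a peak of 17.81, equal to the highest of the basal class in that list, at chr17:39736761-39736976 in a strong enhancer 1555 bp beyond the gene, with 13156 bp to the nearest vehicle peak. *KRT6A*, a keratin induced on injury, had no OCT1 peak, and its DNMT3B peak of 15 in the active promoter state has 1 near-identical copy elsewhere in the genome, so its value is uncertain.

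*TP63*, which maintains the basal state, had peaks in all 4 lists, but its peaks changed place from list to list. In vehicle-treated cells it had 7 OCT1 peaks of 13 to 19, the highest at chr3:189560849-189561257 in a strong enhancer within an intron. Its 5 DNMT3B peaks had pileups of 12, 14, 15, 16 and 16, with those at chr3:189553412-189553630 (16) and chr3:189581205-189581435 (14) in strong enhancers of introns. A DNMT3B peak of 16 lies outside the gene in heterochromatin and has 4 near-identical copies. The OCT1 vehicle peak of 15 in an intron has 2 such copies. In PTS-treated cells *TP63* had 4 OCT1 peaks, 3 of 16.82 and 1 of 17.81, and a DNMT3B peak of 14.61. None of these 5 lay within 19 kb of a vehicle peak of the same antibody, the nearest being 19491 bp away for OCT1 and 28891 bp for DNMT3B. A place upstream, at chr3:189246128-189246362, held the OCT1 peak of PTS-treated cells and shared 172 bp with a DNMT3B peak of 12 in vehicle-treated cells.

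**Figure D2:**
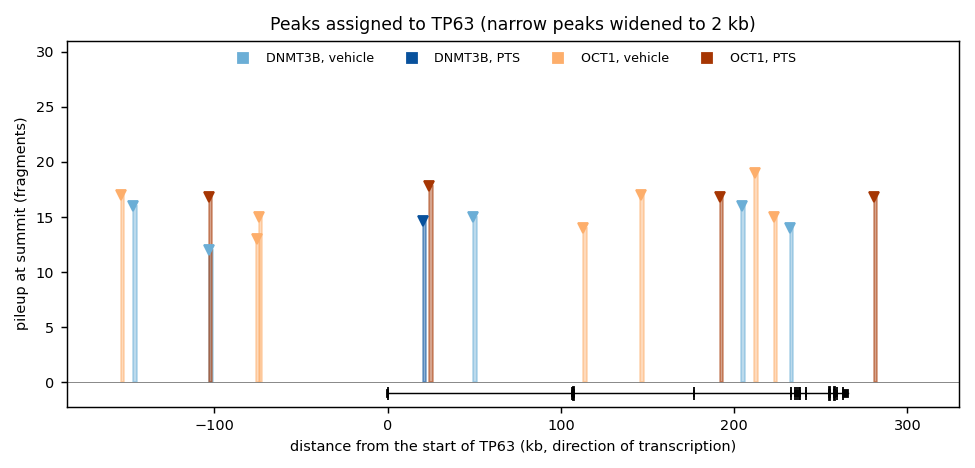
Peaks assigned to TP63 by distance from its upstream start (x axis, kb) and pileup at the summit (y axis, fragments), coloured by antibody and treatment, with exons as black marks below the axis. The peaks of the 4 lists are scattered over the gene and its surroundings at pileups of 12 to 19, and 1 place, about 103 kb upstream, holds peaks of 2 lists.

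All 10 luminal genes had an OCT1 peak in vehicle-treated cells, with pileups of 13 to 17, and 1 had a DNMT3B peak. *CDH1*, which encodes E-cadherin, had peaks of 16 and 17, both in strong enhancers, the first 5000 bp before its start and the other in an intron 9315 bp after it. The luminal keratin *KRT18* had 3 peaks of 14 to 17, with the one of 14 in a coding exon 1774 bp from the start and the one of 17 having 20 near-identical copies. Its partner *KRT8* had 7 peaks of 13 to 16, with a peak of 13 in the active promoter state at 554 bp from a start. At *KRT8* an OCT1 peak of 14 (chr12:53299848-53300307) covered the whole of a DNMT3B peak of 13 (chr12:53299986-53300284), in an intronic enhancer of HMEC, and this was the sole luminal DNMT3B peak. *KRT19*, a keratin of luminal cells and their progenitors, had 2 peaks of 15 in strong enhancers, of which the nearer lay 883 bp before the start.

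Luminal regulators had low OCT1 peaks, and those of the hormone receptors were in states other than active promoters. *ESR1*, the oestrogen receptor, had peaks of 13, 16 and 16, and that of 13 lay in heterochromatin 3458 bp before a start. Those of 16 lay in introns, at chr6:152308594-152308865 in heterochromatin and at chr6:152413057-152413294 in a strong enhancer. *PGR*, the progesterone receptor, had a peak of 16 in an untranslated exon, 583 bp from a start, in the Polycomb-repressed state. *ERBB3*, a receptor of the epidermal growth factor family, had a peak of 15 in an intron at 4192 bp from a start. *GATA3* and *ELF5*, transcription factors of luminal cells, had peaks of 13 and 14, and of 14, 15 and 15. *FOXA1*, the factor that opens chromatin for the oestrogen receptor, had a peak of 15 in vehicle-treated and of 14.84 in PTS-treated cells, with 182 bp shared. It lay in the Polycomb-repressed state of HMEC, 4056 bp beyond the end of the gene, and was the sole luminal peak in the list of PTS-treated cells.

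The 7 EMT members had the fewest OCT1 peaks per gene outside the DNA repair class in vehicle-treated cells, 1.29. They had no peak of either antibody in PTS-treated cells. There 12.6% (OCT1) and 3.21% (DNMT3B) of all genes had one, and 7 genes are too few to tell none from these shares. The 15 other EMT genes described below differed, with 150 OCT1 peaks in vehicle-treated and 31 in PTS-treated cells. Peaks near starts were at *CAV1*, a component of membrane caveolae, with 17 in an untranslated exon 451 bp from a start, and at *CD44*, a hyaluronan receptor, with 16 at 432 bp from the start. Both lie in the active promoter state of HMEC. *VIM*, the intermediate filament of mesenchymal cells, had a peak of 15 only at 27416 bp beyond the gene. *ZEB1*, a repressor of E-cadherin, had the highest DNMT3B peak of all members in vehicle-treated cells, 20, at chr10:31906509-31906709 in heterochromatin 87768 bp beyond the gene. An OCT1 peak of 17 lay beside it, and another of 17 in a *ZEB1* intron. *SNAI2*, a further repressor of E-cadherin, had OCT1 peaks of 11 and 14, and its DNMT3B peaks, of 15 each, have 3 and 12 near-identical copies.

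All 7 epithelial transcription factors had an OCT1 peak in vehicle-treated cells, and 6 had one within 5 kb of a start. *TFAP2A* had 7 peaks of 13 to 16, of which 4, of 15 or 16, lay within 2.5 kb of a start. Its relative *TFAP2C* had 7 peaks of 12 to 18, with one of 15 at 3494 bp before the start and the highest in a strong enhancer 51643 bp beyond the gene. It also had a DNMT3B peak of 13 in the active promoter state, 530 bp after its start. *RUNX1*, a factor mutated in breast tumours, had 8 OCT1 peaks of 13 to 19, with those of 16 and 15 at 971 bp after and 4212 bp before a start, and 4 DNMT3B peaks of 13 or 14, all in introns of the annotated gene. *KLF5*, a factor of proliferating epithelia, had 5 peaks of 12 to 17, with one of 14 at 4195 bp before a start, and *FOSL1*, an AP-1 subunit, had peaks of 15 and 14 in strong enhancers at 2966 bp after and 1039 bp before its start.

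*SOX10* and *SOX9* are the remaining epithelial transcription factors among the members. *SOX10* had an OCT1 peak of 17 in vehicle-treated cells, in an intron 3650 bp from the start. *SOX9* had 2 vehicle peaks of 15 about 40 kb beyond the gene, at 39767 bp and 40722 bp. After PTS it had a peak of 16.82 at chr17:70117714-70117950, in a coding exon 684 bp from the start and in the active promoter state. The nearest vehicle peak to it, of 14, lay 1038 bp away and was assigned to the antisense gene *SOX9-AS1*. This *SOX9* peak has 1 near-identical copy elsewhere.

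Growth factor receptors, long genes with a median of 123154 bp, had the most OCT1 peaks per gene, 5.67, and 1 of the 6, *ERBB2*, had any within 5 kb of a start. All 6 had an OCT1 peak in vehicle-treated cells, 3 had a DNMT3B peak, and none had a peak in PTS-treated cells. The epidermal growth factor receptor *EGFR* had 7 OCT1 peaks of 16 to 18, the highest of the class, and none within 5 kb of a start. *ERBB2*, amplified in a class of breast tumours, had 6 peaks of 15 to 17, with that of 17 in the active promoter state at 601 bp from a start and one of 15 at 3152 bp. *IGF1R* and *FGFR2*, receptors of insulin-like and fibroblast growth factors, had 8 peaks each, of 12 to 17 and 14 to 17. An OCT1 peak of 16 in an *FGFR2* intron has 20 near-identical copies. *FGFR1* had 3 peaks of 13 to 16 and the hepatocyte growth factor receptor *MET* had 15 and 16, both outside the gene. DNMT3B peaks were 15 at *IGF1R*, 14 at *FGFR1*, and 12 and 14 at *FGFR2*.

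Cell cycle genes had few peaks, apart from *CCND1*. The D-type cyclin *CCND1* had 7 OCT1 peaks of 13 to 19 in vehicle-treated cells, with those of 13 and 15 at 4637 bp and 3588 bp before its start and the highest 4460 bp beyond the gene. In PTS-treated cells it had a peak of 18.8 at chr11:69454023-69454222, in the active promoter state 1699 bp before the start. No vehicle peak was listed there, and the nearest, of 15, lay 1657 bp away. *CDK6*, a kinase that acts with this cyclin, had a DNMT3B peak of 19 (chr7:92301477-92301683) and an OCT1 peak of 16, both in introns more than 100 kb from a start. The retinoblastoma gene *RB1* had OCT1 peaks of 19 and 15 in introns and the E-type cyclin *CCNE1* had 13, 14 and 16. *CDK4* and *CDKN2A*, which encodes an inhibitor of both kinases, had no peak in any list. The region around *CDKN2A* held 5 OCT1 vehicle peaks within 1 Mb, as did that around *CDK6*, beside a median of 48 over all genes.

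*HRAS* had the highest peak of all members in each list but that of DNMT3B in vehicle-treated cells, where *ZEB1* had it. It encodes the small GTPase whose activated form was used to transform the parent line. In vehicle-treated cells a single OCT1 peak of 3827 bp (chr11:531257-535083) ran over 85.4% of the gene body as listed (3326 bp), with a pileup of 25 in an intron 753 bp from the start. Of 79811 OCT1 peaks outside repetitive states, 10 were as long and 564 as high. Counting *HRAS*, 4 protein-coding genes with an OCT1 peak in their body were covered as far or further, and the median of such genes was 1.60%. In PTS-treated cells 3 OCT1 peaks, of 21.77, 20.78 and 22.76, covered 48.5% of the body (3 genes as far or further, median 1.01%). DNMT3B had 4 peaks of 14, 14, 15 and 15 covering 26.8% in vehicle-treated cells (16 genes as far or further), and peaks of 16.44 and 19.17 covering 8.51% in PTS-treated cells (18 genes).

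All of the DNMT3B and OCT1 peaks of *HRAS* lay at or within 200 bp of this OCT1 peak. Its states run from transcription transition over weak promoter and strong enhancer to active promoter. None of the 10 *HRAS* peaks has a near-identical copy elsewhere in the reference genome. That genome does not hold the *HRAS* transgene of these cells, and reads from the transgene were not told apart from those of the gene. Within 50 kb of *HRAS* there were 10 other OCT1 and 1 other DNMT3B peak in vehicle-treated cells, and within 1 Mb there were 103 and 12, beside medians of 48 and 2 over all genes. In PTS-treated cells 19 OCT1 and 10 DNMT3B peaks lay within 1 Mb, beside medians of 2 and 0. The copy number of *HRAS* in these cells was not analysed here.

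**Figure D3:**
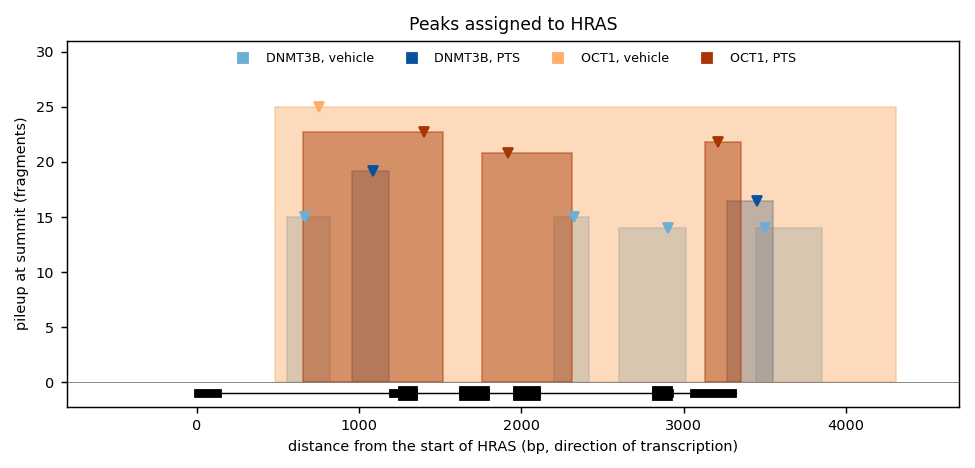
Peaks assigned to HRAS by distance from its start in the direction of transcription (x axis, bp); boxes span each peak, their height is the pileup at the summit (y axis, fragments), triangles mark summits, and the gene model (coding exons thick) is drawn below the axis. The OCT1 peak of vehicle-treated cells spans 3827 bp at a pileup of 25, and the 9 peaks of the other lists lie within its span at 14 to 22.76.

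The other signalling genes had OCT1 peaks in vehicle-treated cells alone among the 4 lists. *AKT1*, a kinase downstream of PI3K, had 5 peaks of 13 to 17, with the highest in an untranslated exon at 855 bp from a start and one of 16 at 1257 bp. *PIK3CA*, the catalytic subunit of PI3K, had 4 peaks of 13 to 19, of which that of 16 has 20 near-identical copies. The *PIK3CA* peak of 13 lay in the active promoter state at 293 bp from the start. The regulatory subunit *PIK3R1* had 2 peaks of 15, and *MAP3K1*, a kinase mutated in breast tumours, had a peak of 13 that lay 56846 bp before the gene. Of the DNA repair genes *BRCA1* had OCT1 peaks of 15 and 14, both in introns, and *BRCA2* and *PALB2* had none in any list. *PALB2* lacked a peak although 26 DNMT3B and 66 OCT1 vehicle peaks lay within 1 Mb. With *ZEB2* and *TWIST1*, EMT genes that also had none, 6 of 55 members (10.9%) were in no list, beside 40.6% of all genes.

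Basal, luminal and driver genes did not separate by the share of genes with a listed peak, and the intervals were wide. In the OCT1 vehicle list it was 90.9% of basal (95% interval 62.3 to 98.4), 100% of luminal (72.2 to 100) and 80% of driver genes (58.4 to 91.9). For DNMT3B in vehicle-treated cells it was 36.4% of basal (15.2 to 64.6), 10% of luminal (1.79 to 40.4) and 25% of driver genes (11.2 to 46.9). In the OCT1 list of PTS-treated cells, 4 basal, 1 luminal and 2 driver genes had a peak. Within 5 kb of a start, OCT1 vehicle peaks were listed at 54.5% of basal (28.0 to 78.7), 70.0% of luminal (39.7 to 89.2) and 25% of driver genes (11.2 to 46.9). Median pileup of OCT1 vehicle peaks was 15 in each of these 3 classes, and the differences between classes were not tested.

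Further genes of the same kinds also had OCT1 peaks at most genes in vehicle-treated cells, and the difference from the members was not tested. Over all protein-coding genes 57.7% had an OCT1 and 14.1% a DNMT3B peak in vehicle-treated cells, and 12.6% and 3.21% had one after PTS. Among 20 other basal and hemidesmosome genes, 15 had an OCT1 and 6 a DNMT3B peak in vehicle-treated cells, and 5 and 2 had one after PTS. Among 20 other luminal genes these counts were 16 and 5, and 3 and 0, and among 15 other EMT genes they were 14 and 9, and 7 and 2. Of 20 other breast cancer driver genes 17 had an OCT1 and 3 a DNMT3B peak in vehicle-treated cells, and 3 and 2 after PTS. The highest belonged to *KMT2C*, a histone methyltransferase, with an OCT1 pileup of 43 in vehicle-treated and 42.55 in PTS-treated cells and a DNMT3B pileup of 34 and 29.22. Every member peak was lower than these. Near-identical copies were searched for member peaks alone, so whether the *KMT2C* peaks have copies elsewhere was not tested.

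Peaks of the 55 genes lay in enhancer states of HMEC more often than peaks in general. In the OCT1 vehicle list 62 of 175 member peaks (35.4%, 95% interval 28.7 to 42.8) were in an enhancer state, beside 16.7% of all peaks, and 16 (9.14%) in a promoter state, beside 6.74%. Heterochromatin held 45 (25.7%, 95% interval 19.8 to 32.7), beside 47.6%. In the DNMT3B vehicle list 11 of 27 member peaks (40.7%, 95% interval 24.5 to 59.3) were in an enhancer state, beside 17.3%, and 7 (25.9%, 95% interval 13.2 to 44.7) in heterochromatin, beside 40.9%, which lies within this interval. None of the 218 member peaks was in a repetitive state. Over all peaks the share was 1.55% (OCT1, vehicle), 7.54% (DNMT3B, vehicle), 6.52% (OCT1, PTS) and 21.9% (DNMT3B, PTS). Each of these lies within the 95% interval of the members' 0% in that list. HMEC are normal mammary epithelial cells in which many of the members are active, and the states were not measured in MCF10CA1a. By class, promoter or enhancer states held 14 of 25 luminal, 21 of 47 basal and 19 of 62 driver peaks of OCT1 in vehicle-treated cells, and 8 of 34 among the receptors. Of the 175 summits 84 lay in introns, 72 outside the gene, 7 in untranslated exons, 6 in coding exons and 6 in exons of noncoding transcripts.

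**Figure D4:**
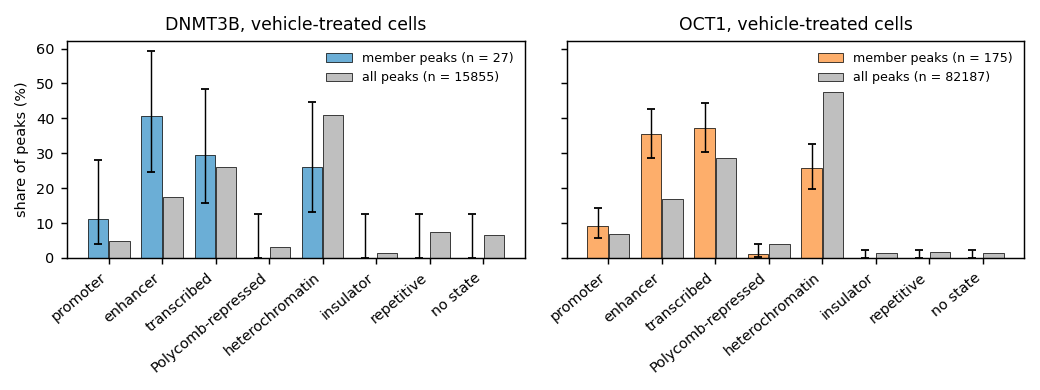
Share of peaks (y axis, %) in each class of chromatin state of HMEC (x axis) for peaks of the 55 genes (coloured, with Wilson 95% intervals) and for all peaks of the list (grey), in vehicle-treated cells. Member peaks exceed all peaks in enhancer states (40.7% against 17.3% for DNMT3B, 35.4% against 16.7% for OCT1) and fall short in heterochromatin for OCT1, while the DNMT3B interval there includes the share of all peaks.

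Member peaks of vehicle-treated cells seldom had a peak at the same place, within 200 bp, in PTS-treated cells. For OCT1 this held for 2 of 175 peaks (1.14%, 95% interval 0.314 to 4.07), at *HRAS* and *FOXA1*, beside 12.5% of all peaks of the list and 10.3% of peaks that were no higher than the highest member peak and not in repetitive states. For DNMT3B it held for 2 of 27 (7.41%, 95% interval 2.06 to 23.4), both at *HRAS*, beside 18.7% and 8.28%. In the reverse direction 4 of 13 OCT1 peaks of PTS-treated cells had a vehicle peak (30.8%, 95% interval 12.7 to 57.6), beside 63% and 57.5%, and 2 of 3 DNMT3B peaks did, beside 68.9% and 44.8%. Without *HRAS* these counts were 1 of 174 and 0 of 23 vehicle peaks, and 1 of 10 and 0 of 1 peaks of PTS-treated cells.

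A peak that was listed in vehicle-treated cells and not in PTS-treated cells does not show a fall. The list of PTS-treated cells starts at 13 reads for OCT1, so a place with 12 reads would be unlisted, and against the median vehicle pileup of 15 this is a ratio of 0.792 (exact 95% interval 0.338 to 1.81). The vehicle pileup would have to be 25 for that interval to exclude 1. Of the 175 OCT1 member peaks, 1 reached it, at *HRAS*, which was listed in both treatments. For DNMT3B the bound was also 25, and 0 of 27 peaks reached it. These bounds take the lowest listed pileup as the limit, and whether places with more reads went unlisted was not tested. In the opposite direction, a PTS peak had to reach 22.76 (OCT1) or 21.91 (DNMT3B) to exceed an unlisted vehicle place, and the *HRAS* peak of 22.76 was again the sole one. The peaks listed at *SOX9*, *CCND1* and *KRT14* after PTS, of 16.82 to 18.8, fell short of this bound. Their vehicle pileups are not listed and may be lower than the bound takes them to be, so a rise there was neither shown nor excluded.

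Where both treatments had a peak within 200 bp, pileups did not differ beyond counting error. The paired summits are not always at the same base. The DNMT3B peaks of 19.17 and 15 at *HRAS* did not overlap and lay 136 bp apart. The paired OCT1 summits of *HRAS* were at chr11:534168 (PTS) and chr11:534814 (vehicle). At *HRAS* the ratio of PTS to vehicle was 1.17 (exact 95% interval 0.552 to 2.55; 16.44 against 14) and 1.28 (0.628 to 2.67; 19.17 against 15) for DNMT3B. The OCT1 ratio was 0.910 (0.494 to 1.67; 22.76 against 25) at *HRAS* and 0.990 (0.451 to 2.17; 14.84 against 15) at *FOXA1*. None of these few member regions, all at *HRAS* or *FOXA1*, was past 1.5-fold in either direction. Over all regions 2.6% of DNMT3B and 2.6% of OCT1 regions were higher and 1.34% and 1.56% lower past this fold. With shares this small, none among so few regions does not set the members apart. The medians over all regions were 1.00 and 1.04.

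DNMT3B and OCT1 peaks of the members coincided mainly at *HRAS*. In vehicle-treated cells 5 of 27 DNMT3B peaks (18.5%, 95% interval 8.18 to 36.7) had an OCT1 peak within 200 bp, 4 of them at *HRAS* and 1 at *KRT8*, beside 55.5% of all DNMT3B peaks and 50.1% of those as low and outside repetitive states. From the side of OCT1 it was 2 of 175 (1.14%), beside 11% and 8.63%. In PTS-treated cells 2 of 13 OCT1 peaks did so (15.4%, 95% interval 4.33 to 42.2), both at *HRAS*, beside 18.3% and 8.46%, and 2 of 3 DNMT3B peaks, beside 66.8% and 49.5%. Apart from *HRAS*, the counts were 1 of 23, 1 of 174, 0 of 10 and 0 of 1. Members lay in regions of ordinary peak number, with medians of 2 DNMT3B and 41 OCT1 vehicle peaks within 1 Mb, beside 2 and 48 over all genes.

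**Figure D5:**
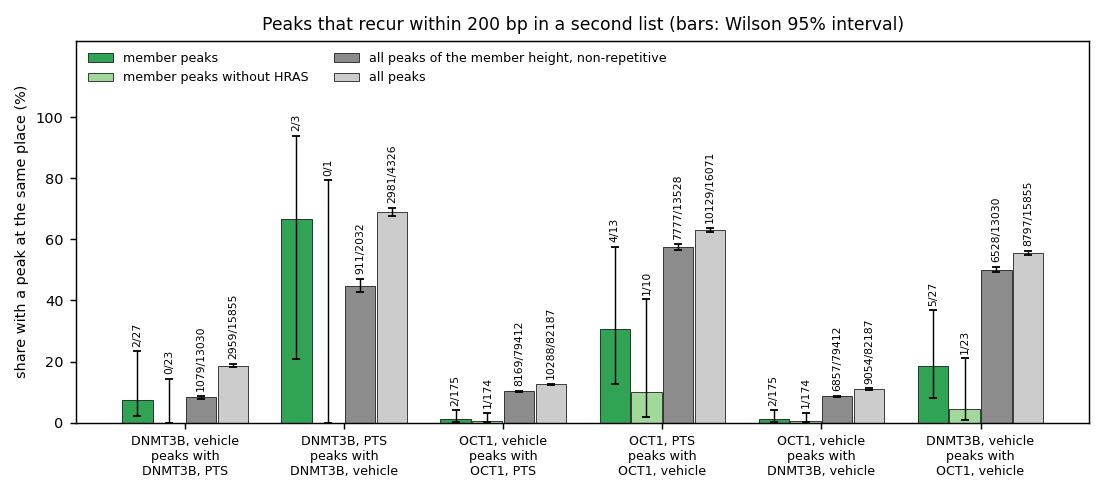
Share of peaks of a list (y axis, %) with a peak of a second list within 200 bp, for 6 pairs of lists (x axis), with member peaks in green, the same without HRAS in light green, and all peaks in greys; error bars are Wilson 95% intervals and the counts stand above the bars. For OCT1 in vehicle-treated cells 1.14% of member peaks recur in PTS-treated cells against 12.5% of all peaks, and without HRAS no pair of lists exceeds 10%.

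The octamer ATGCAAAT was not found within 100 bp of the summit, on either strand, in any of the 175 OCT1 member peaks of vehicle-treated cells (0%, upper 95% limit 2.15) or the 13 of PTS-treated cells (upper limit 22.8). Over all OCT1 peaks it was found in 0.497% and 0.727%. Among DNMT3B member peaks it was found in 0 of 27 and 0 of 3, beside 0.844% and 0.535% of all peaks. The variant ATGCTAAT was found in 1 OCT1 member peak (0.571%, beside 0.208%), upstream of *FGFR2* at a pileup of 17, and the shorter ATGCAAA, which lies within the octamer, in 1 peak of *KRT18* (0.571%, beside 2.40%). The *FGFR2* match is shown on the plus strand of GRCh37 (chr10:123367211-123367251) with the variant octamer in capitals, starting 68 bp from the summit. A match is a description of the letters, and a window without one says only that these letters are not in it. The median GC content of the windows was 54.7% in OCT1 and 51.7% in DNMT3B member peaks of vehicle-treated cells, beside 53.2% and 49.3% over all peaks, with medians of 3 CpG in both.
FGFR2, OCT1, vehicle: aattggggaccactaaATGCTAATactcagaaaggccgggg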

How the data were processed

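ChIP-seq of DNMT3B and OCT1 in MCF10CA1a cells was used as 4 deposited peak lists, 1 per antibody and treatment, with 3 replicates pooled by the authors. After adapter trimming (cutadapt) and alignment to GRCh37/hg19 (BWA), the authors dropped duplicate and low-quality reads and ran MACS2 on fragments extended to 200 bp. Genes came from ChIPseeker and chromatin states from ChromHMM in HMEC. Versions are not given in the sources used here. The labels call the lists enriched in 1 treatment, but their deposited values set pileup against background, not against the other treatment. The deposited pileup is a signal of pooled fragments, scaled to equal depth by the authors. The authors' fold enrichment is a ratio, pileup plus 1 over background plus 1, and each deposited list has 1 background value. The authors also deposited −log10 p and q values, and P-value and Q-value scores, computed as 10 to the power of −x/10, which are not probabilities on their own scale.

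Each peak and gene pair was counted once, and chromosome names split over columns were rejoined. The 55 members and the gene lists were chosen with earlier results of these data known. The text names every member, with full values for those with a called peak, a highest peak of a class or list, a peak within 5 kb of a start or peaks in all 4 lists. Peaks within 200 bp were at the same place. Intervals are Wilson (shares) or exact binomial (ratios) and cover counting error only; PCR reads are not independent molecules. Backgrounds are 20090 protein-coding genes of GENCODE 44 lifted to GRCh37, so genes under older symbols count as without a peak. Near-identical copies (90% identity over 80% of the peak) were searched in the GRCh37 reference with minimap2 2.31-r1302. Scripts used scipy 1.17.1, pandas 2.3.3, pysam 0.24.0, matplotlib 3.10.9 and numpy 2.4.6 under Python 3.11.15. The code was tested on simulated data: planted overlaps and octamers were recovered in full, and 95.8% of intervals held the planted ratio. Alternatives varied the score, the minimum pileup, distances, matching and motifs. The input libraries were not analysed here.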

Additional observations from a re-analysis of the deposited data

How the results depend on the processing

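No paired analysis was possible because the authors pooled the 3 replicates in each list, and for the same reason no replicate could be left out. Of 107 alternatives, 80 kept the value within 1.5 times (counts) or within its interval (shares and ratios), and 27 did not. With the deposited score under 0.05, members and member peaks fell to 0 in each list but that of OCT1 in vehicle-treated cells, where 1 gene and 1 peak remained, *HRAS*. The shares of basal, luminal and driver genes were then 0%, apart from 5% of driver genes in that list. Starts at most 10 kb away left 4 members with a DNMT3B peak in vehicle-treated and 1 in PTS-treated cells. Counting deposited lines, which repeat a peak for each transcript, gave 70, 5, 387 and 24 member peaks (DNMT3B vehicle, DNMT3B PTS, OCT1 vehicle, OCT1 PTS). Leaving out *HRAS*, an alternative chosen after seeing the data, left 1 member and 1 peak in the DNMT3B list of PTS-treated cells, and 0% of DNMT3B vehicle peaks with a PTS peak and 0% of OCT1 peaks of PTS-treated cells with a DNMT3B peak at the same place. At this depth a member peak holds 11 to 25 fragments, so differences under about 2-fold were not detectable at single places. Member values rest on peaks close to the lower end of the lists, and pooled lists cannot show whether a peak was in every replicate.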
